A study of Mus musculus with 13 samples.

Results

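Retinoid metabolism and aldehyde oxidation were followed through 9 genes in bulk RNA sequencing of 13 mouse NUT carcinomas (mNCs), tumors driven by a fusion gene that Cre recombinase creates by joining chromosomes in the NCT mouse. The 9 genes, Aldh1a1, Aldh1a2, Aldh1a3, Aldh3a1, Crabp1, Crabp2, Rarb, Rarg and Cyp26b1, were chosen by name and function from 55332 genes with values, and every one of them was detected in every tumor. All tumors carried NCT+/- and a Cre driver. There were 4 Sox2 WT oral tumors (KRT14-Cre; NCT+/-), 2 Sox2 KO oral tumors (labelled KRT4Cre; NCT+/-; Sox2fl/fl, where the study's methods give KRT14-Cre), 4 Sox2 WT pancreatic tumors (Pdx1-Cre; NCT+/-) and 3 Sox2 KO pancreatic tumors (Pdx1-Cre; NCT+/-; Sox2fl; fl). KRT14 drives Cre in basal cells of stratified epithelia and Pdx1 in the pancreatic lineage, so tissue and Cre driver cannot be told apart, and the rare Cre-made translocation makes each tumor grow from few cells. The labels give neither ages nor whether tumors of a group came from separate mice, so p-values measure the spread between these libraries.

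Retinoic acid is made from vitamin A in steps. Retinol is taken up, stored as esters and oxidized to retinaldehyde, which the retinaldehyde dehydrogenases Aldh1a1, Aldh1a2 and Aldh1a3 oxidize irreversibly to retinoic acid. The carriers Crabp1 and Crabp2 bind the acid in the cell, the receptors Rarb and Rarg act on DNA as partners of RXR proteins, and Cyp26b1 degrades the acid. Aldh3a1 oxidizes other aldehydes, among them products of lipid peroxidation, and is best known as an abundant protein of the corneal epithelium. In stratified epithelia retinoic acid is known for holding back keratinization, and in the embryo Aldh1a2 is the main source of the signal for many organs, the pancreas included.

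Sox2 counts followed the labels, with 410 to 680 counts in oral WT tumors, 0 and 1 in oral KO tumors, 1111 to 1487 in pancreatic WT tumors and 0 to 2 in pancreatic KO tumors. Libraries held 29393925 to 40419965 estimated counts in oral WT, 11735031 and 20431977 in oral KO, 40964171 to 46134532 in pancreatic WT and 89562488 to 120482588 in pancreatic KO. Oral KO tumor 1, the smallest library, stood apart, with 59.5% of its counts on protein-coding genes against 84.5% to 91.7% in the other tumors and 16.6% on the noncoding RNA genes Rn7s1 and Rn7s2. The 12 skeletal muscle markers summed to 5420 and 2999 CPM, counts scaled to a common library size, in the 2 oral KO libraries, to 631 in oral WT tumor 4 and to 17.1 to 29.4 in the other tumors. In bulk tissue, fewer cells of a type and less RNA per cell cannot be told apart.

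Rarb is itself a textbook target of retinoic acid through a repeat of short half-sites in its proximal promoter, so the promoter is shown with the repeat that a letter search found in capitals. The window is from RefSeq (GRCm38.p6, minus strand, chr14:16575427-16575726) and runs from 250 bases before to 50 bases after a Rarb start site at which the GENCODE transcripts Rarb-202 and Rarb-205 also start within 50 bases.
Rarb promoter: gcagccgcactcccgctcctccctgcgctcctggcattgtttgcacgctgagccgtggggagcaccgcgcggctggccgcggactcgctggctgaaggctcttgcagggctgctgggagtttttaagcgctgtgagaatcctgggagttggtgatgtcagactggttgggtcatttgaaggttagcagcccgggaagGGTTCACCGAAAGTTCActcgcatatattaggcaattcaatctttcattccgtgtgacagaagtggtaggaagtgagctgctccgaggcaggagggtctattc
The search took the consensus half-site AGGTCA, its variant AGTTCA, the other variant GGGTCA and the further variant GGTTCA, and looked on both strands for any 2 of them in the same direction with 1, 2 or 5 bases between. The repeat in Rarb has 5 bases between its half-sites and lies from 53 to 37 bases before the start site. Of 32851 windows of this length in the RefSeq table, 32 (0.0974%) held a repeat with 5 bases between, 88 (0.268%) one with 2, 73 (0.222%) one with 1, and 193 (0.588%) any of them. Windows were at hand for 6 of the 9 genes (8 windows), and Rarb's was the one of the 8 with a match. Aldh1a3, Aldh3a1 and Crabp2 had no window in that table.

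Levels are compared between genes only per length, as CPM per kilobase (kb) of merged exon. In pancreatic WT tumors Aldh1a3 (chromosome 7, 66390890 to 66427517, minus strand, GRCm38) led with 83.7 ± 14.8 CPM per kb (SD, n = 4), above Rarg with 47.6 ± 8.28 and Crabp2 with 40.1 ± 20.2, and the ranges of these latter genes overlapped. The remaining 6 lay far lower. They were Aldh1a2 with 3.74 ± 0.720, Cyp26b1 with 2.86 ± 2.41, Aldh3a1 with 2.53 ± 2.94, Aldh1a1 with 1.58 ± 1.69, Crabp1 with 1.43 ± 1.27 and Rarb with 0.202 ± 0.0862, and each range overlapped that of the next in order. In oral WT tumors the same 3 genes led in another order, Rarg with 34.6 ± 0.983, Crabp2 with 29.7 ± 31.4 and Aldh1a3 with 19.8 ± 18.2 CPM per kb, and their ranges overlapped. Aldh3a1 followed with 13.7 ± 5.78, Cyp26b1 with 5.57 ± 5.58, Crabp1 with 4.54 ± 2.92, Aldh1a1 with 2.45 ± 2.04, Aldh1a2 with 1.59 ± 0.436 and Rarb, lowest again, with 0.613 ± 0.270 CPM per kb. In the KO tumors the top of the order was Aldh1a3 with 28.1 ± 2.46 (n = 2), Rarg with 20.5 ± 8.46 and Crabp2 with 19.5 ± 12.1 in oral KO, and Aldh1a3 with 70.6 ± 4.58 (n = 3), Crabp2 with 53.4 ± 15.1 and Rarg with 50.5 ± 5.88 in pancreatic KO.

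**Figure D1:**
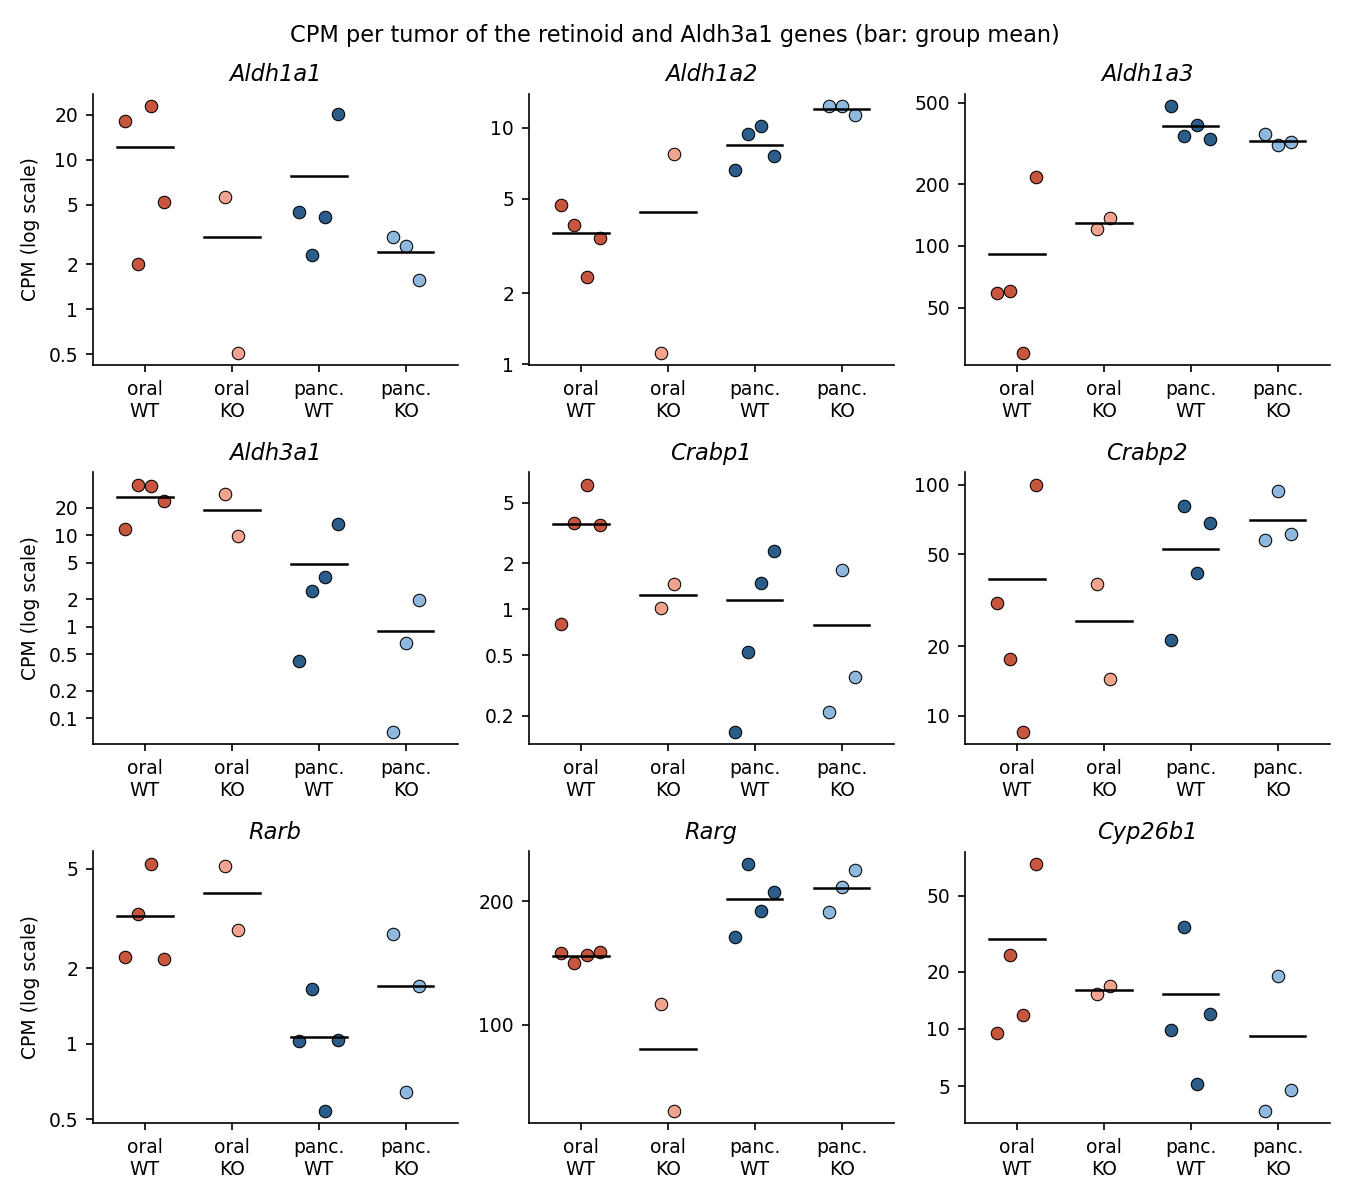
CPM in each tumor (log scale, 1 point a tumor, bar at the group mean) for the 9 genes in oral WT (n = 4), oral KO (n = 2), pancreatic WT (n = 4) and pancreatic KO (n = 3) tumors. Aldh1a3 is at 30.1 to 216 in oral tumors and at 309 to 482 in pancreatic tumors, and oral WT tumor 4 holds the highest Aldh1a3, Crabp2 and Cyp26b1 of its group.

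The first question was how the genes differ between tumors of the 2 tissues. Among Sox2 WT tumors, 3 of the 9 genes were called, that is, they had an edgeR adjusted p under 0.05 and a log2 fold change beyond 1 in size. Rarb was higher in oral tumors, and Aldh1a2 and Aldh1a3 were lower. Over all 23164 genes tested in this comparison, 16.5% were called, 9.30% higher and 7.24% lower in oral tumors. The groups did not overlap for 4 of the 9 genes (1 higher, 3 lower in oral tumors), against 27.6% of all genes. The median log2 fold change, oral against pancreatic, was 0.66 for the 9 genes and 0.00 over all genes tested, with 5 of the 9 above 0.

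Among Sox2 KO tumors, 3 of the 9 genes were again called between tissues. Aldh3a1 was higher in oral KO tumors, and Aldh1a3 and Rarg were lower. The background in this comparison was 25.2% of 24787 genes, 14.6% higher and 10.7% lower in oral tumors, and the groups did not overlap for 6 of the 9 genes (2 higher, 4 lower) against 62.2% of all genes. Leaving out 1 tumor brought the share of all genes called to 13.4% (pancreatic KO tumor 2) to 20.3% (oral KO tumor 1). With 2 oral KO tumors the non-overlap is a weak description. Without oral KO tumor 1, the library with little protein-coding RNA, the calls were Aldh1a3, Rarg and Crabp2, all lower in the oral tumor, and Aldh3a1 had an edgeR adjusted p of 0.126. Without oral KO tumor 2 the calls were Aldh1a2 and Aldh1a3, both lower in the oral tumor. In either of these fits the lone oral KO tumor is assumed to vary like the pancreatic KO tumors.

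The second question was whether loss of Sox2 changed the genes within a tissue. In oral tumors none of the 9 was called by edgeR between KO and WT, with 11.7% of 22342 genes called. None had an unadjusted p under 0.05, against 7913 of all genes, and DESeq2 called none, against 17.9% of all genes. The edgeR share of 11.7% rested on single libraries: it was 0.324% without oral WT tumor 1, 0.163% without oral WT tumor 2, 5.48% without oral WT tumor 3 and 12.2% without oral WT tumor 4. It also fell without either oral KO tumor, where a lone oral KO tumor is left. In pancreatic tumors none of the 9 was called either, with 0.629% of 24653 genes called (1.09% without pancreatic WT tumor 4 and 0.175% to 0.293% without any other tumor). There 1 gene, Aldh1a2, had an unadjusted p under 0.05 (edgeR adjusted p = 0.269), against 3916 of all genes. DESeq2 called none of the 9, against 4.51% of all genes. KO and WT tumors did not overlap for 1 gene in each tissue, against 49.5% of all genes in oral and 15.5% in pancreatic tumors. These genes were Rarg, lower in oral KO tumors, and Aldh1a2, higher in pancreatic KO tumors. The difference of the KO effect between tissues was called for none of the 9, with 12.3% of 25836 genes called (5.96% without pancreatic KO tumor 3 to 16.1% without pancreatic WT tumor 4). Of the 9, 1 gene (Rarg) had an unadjusted p under 0.05, against 8776 of all genes. DESeq2 called none of them for this difference, against 18.3% of all genes. Leaving out oral WT tumor 4 added Aldh1a3 to the calls of oral KO against WT (log2 fold change 1.57, edgeR adjusted p = 0.0277) and to those of the difference of the KO effect (1.75, edgeR adjusted p = 0.0118). The latter also gained Rarg without oral KO tumor 1 (-1.26, adjusted p = 0.0252) and Aldh1a2 without oral KO tumor 2 (-2.06, adjusted p = 0.0335).

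**Figure D2:**
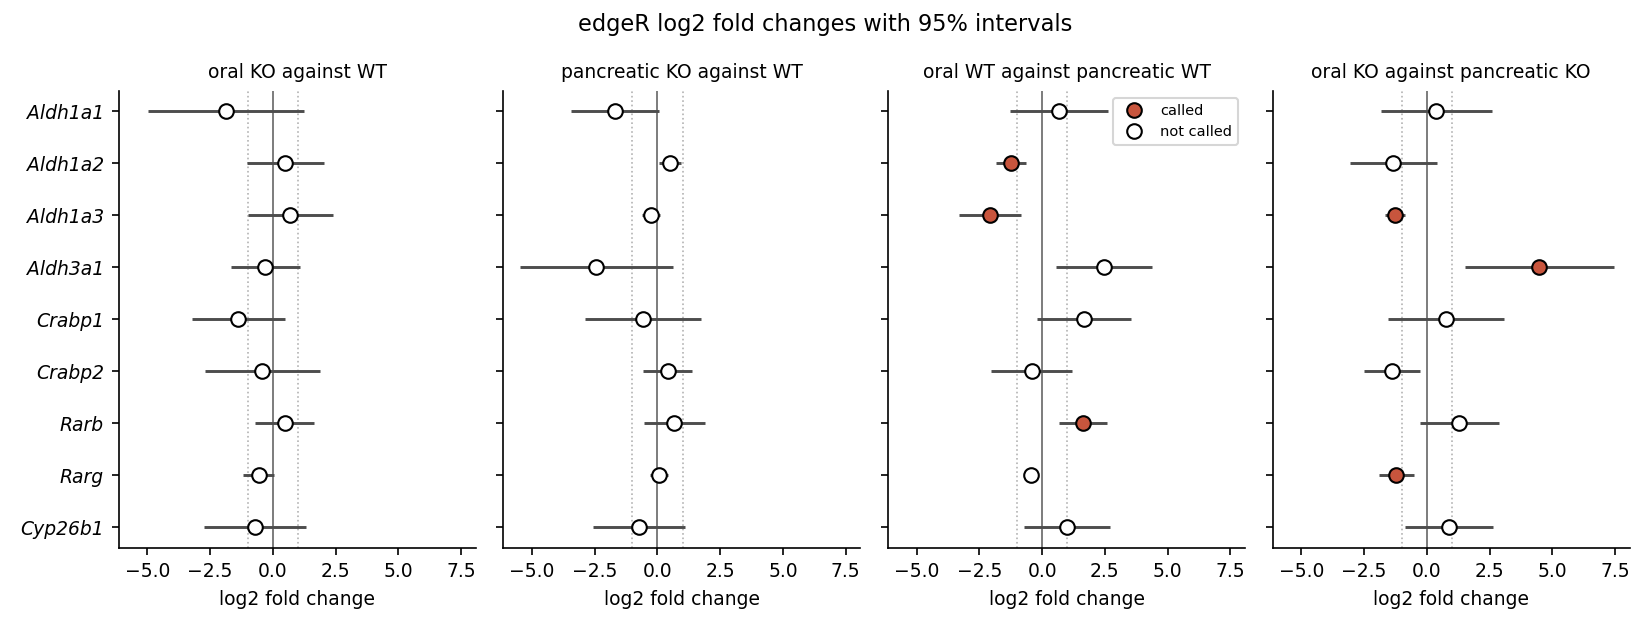
Log2 fold change of each of the 9 genes (x axis, first group minus second) with its 95% interval in 4 comparisons, from edgeR. Filled points passed both thresholds, dotted lines mark a log2 fold change of 1 in either direction, and in both KO against WT comparisons every point is open.

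Aldh1a3 carried most of the retinaldehyde dehydrogenase RNA. Its CPM was 59.1, 60.5, 30.1 and 216 in oral WT tumors 1 to 4, 122 and 138 in oral KO, 482, 342, 388 and 333 in pancreatic WT, and 350, 309 and 320 in pancreatic KO. All 7 pancreatic tumors lay above all 6 oral tumors. Oral against pancreatic, the log2 fold change was -2.08 in WT tumors (SE 0.55, 95% interval -3.33 to -0.83, edgeR adjusted p = 0.0267) and -1.25 in KO tumors (SE 0.17, interval -1.65 to -0.85, adjusted p = 0.00787). In WT tumors the call was lost without oral WT tumor 1 or 2 or without pancreatic WT tumor 1 or 3, at adjusted p from 0.0584 to 0.0718, while the direction stayed. In KO tumors it was kept in all 5 fits that left out 1 tumor, and lost with protein-coding genes alone (-0.98, adjusted p = 0.0164, short of the fold threshold) and in 1 fit of all 13 tumors (adjusted p = 0.142). Between KO and WT the log2 fold change was 0.69 in oral tumors (interval -1.01 to 2.39) and -0.26 in pancreatic tumors (interval -0.63 to 0.10), both not called. Of the 31-base words of Aldh1a3, 2.15% also occur in other genes, most of them in Casc4.

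Aldh1a2, the main retinaldehyde dehydrogenase of the early embryo, was also higher in pancreatic than in oral WT tumors but at a low level. Its CPM was 4.70, 3.90, 2.34 and 3.41 in oral WT, 1.12 and 7.71 in oral KO, 6.66, 9.43, 10.2 and 7.60 in pancreatic WT, and 12.3, 12.4 and 11.4 in pancreatic KO. The WT groups did not overlap, and the oral KO tumors lay on both sides of the oral WT range. In WT tumors the log2 fold change, oral against pancreatic, was -1.23 (SE 0.27, interval -1.84 to -0.63, edgeR adjusted p = 0.0113), called in all 8 fits that left out 1 tumor. In KO tumors it was -1.33 (SE 0.71, adjusted p = 0.189). All 3 pancreatic KO tumors lay above all 4 pancreatic WT tumors, by 0.49 on the log2 scale (SE 0.19, interval 0.05 to 0.93), which did not pass the adjustment (edgeR adjusted p = 0.269).

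Aldh1a1, which also oxidizes retinaldehyde and other aldehydes, varied widely within groups. Its CPM was 18.2, 2.01, 22.9 and 5.18 in oral WT, 5.59 and 0.509 in oral KO, 4.43, 2.32, 4.12 and 20.3 in pancreatic WT, and 3.05, 2.65 and 1.57 in pancreatic KO. High tumors occurred in both WT groups, and all groups overlapped. KO against WT differed by -1.86 on the log2 scale in oral tumors (interval -4.97 to 1.26, edgeR adjusted p = 0.343) and -1.69 in pancreatic tumors (interval -3.46 to 0.08, adjusted p = 0.335). The latter was -0.61 without pancreatic WT tumor 4. Between tissues it was 0.66 in WT tumors (interval -1.296 to 2.62) and 0.37 in KO tumors (interval -1.84 to 2.58), neither called. Aldh1a1 shares 281 of its 4934 words of 31 bases (5.70%) with its neighbour in sequence Aldh1a7, so part of its estimated counts depends on how reads were split between the pair.

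Summed per length over Aldh1a1, Aldh1a2 and Aldh1a3, the level was 12.2 to 49.3 CPM per kb in oral WT tumors, 27.9 and 33.3 in oral KO, 78.7 to 108 in pancreatic WT and 72.9 to 81.8 in pancreatic KO. Of that sum Aldh1a3 made up 90.6% to 96.5% in each pancreatic tumor, and 89.5% and 94.2% in the oral KO group. In oral WT tumors its share ran from 53.4% in tumor 3, where Aldh1a1 held 38.1%, to 94.8% in tumor 4. No test was made of this sum or of the shares.

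**Figure D3:**
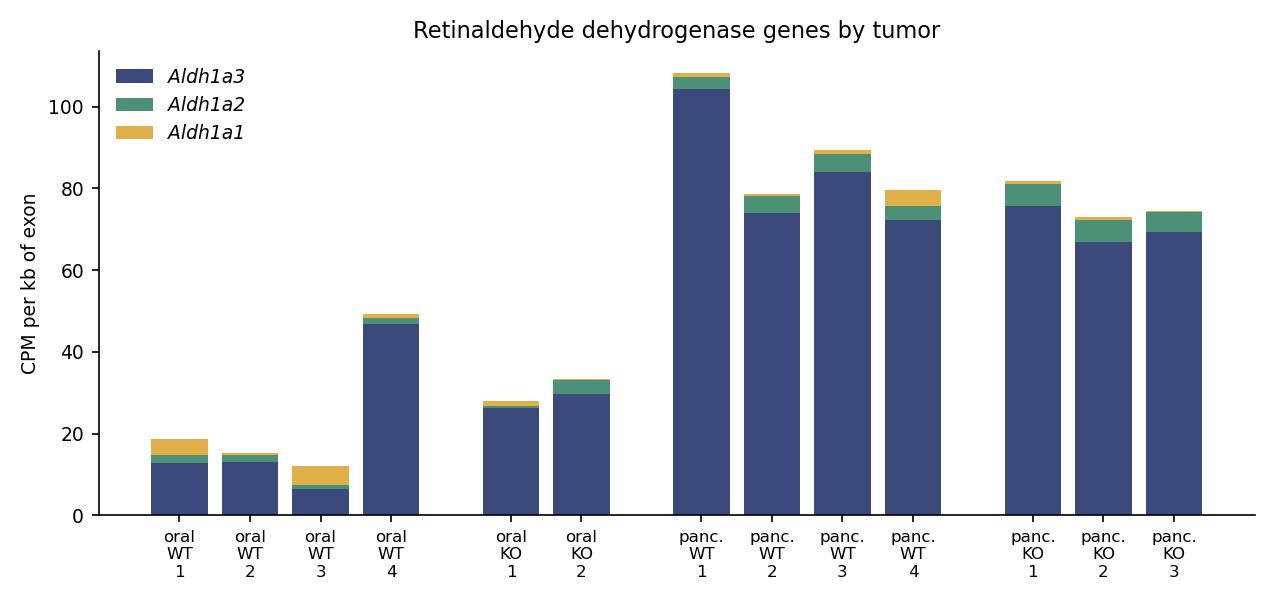
Stacked CPM per kb of exon of Aldh1a1, Aldh1a2 and Aldh1a3 in each of the 13 tumors. The pancreatic tumors reach 72.9 to 108 CPM per kb, nearly all of it Aldh1a3, and the oral tumors 12.2 to 49.3.

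Aldh3a1 ran the other way, with higher values in oral tumors. Its CPM was 11.8, 35.7, 35.0 and 23.8 in oral WT, 28.4 and 9.75 in oral KO, 0.420, 2.49, 3.52 and 13.3 in pancreatic WT, and 0.0711, 0.669 and 1.98 in pancreatic KO. The WT groups overlapped only through pancreatic WT tumor 4, which lay above oral WT tumor 1. Between WT tumors the log2 fold change, oral against pancreatic, was 2.46 (SE 0.85, interval 0.53 to 4.38, edgeR adjusted p = 0.0672), which missed the threshold, and DESeq2 called it (adjusted p = 0.00538). Without pancreatic WT tumor 4 it was 3.66 (edgeR adjusted p = 0.0138). In KO tumors it was 4.47 (SE 1.21, interval 1.504 to 7.44, adjusted p = 0.0382). This call was lost without oral KO tumor 1, oral KO tumor 2 or pancreatic KO tumor 2 (adjusted p = 0.126, 0.0695 and 0.111) and with libraries thinned to the smallest (log2 fold change 3.34, adjusted p = 0.0881). Pancreatic KO tumor 1 had 8 counts of Aldh3a1, so its value is imprecise. KO against WT was -0.30 in oral tumors (interval -1.68 to 1.08) and -2.44 in pancreatic tumors (interval -5.50 to 0.61, edgeR adjusted p = 0.415), and the difference of these effects was 2.08 (SE 1.51, adjusted p = 0.353).

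The carriers of retinoic acid, Crabp1 and Crabp2, were not called in any of the 5 comparisons. Crabp2, which hands the acid to nuclear receptors, had a CPM of 30.8, 17.6, 8.53 and 99.8 in oral WT, 37.1 and 14.4 in oral KO, 21.3, 80.7, 41.6 and 68.2 in pancreatic WT, and 57.4, 93.6 and 60.9 in pancreatic KO. Oral WT tumor 4 held the highest value of all tumors, and the other 5 oral tumors lay below all pancreatic KO tumors. The log2 fold change, oral against pancreatic, was -0.42 in WT tumors (interval -2.03 to 1.19; -1.46 without oral WT tumor 4, edgeR adjusted p = 0.0717) and -1.38 in KO tumors (SE 0.45, interval -2.49 to -0.28, edgeR adjusted p = 0.0621). DESeq2 called the latter (adjusted p = 0.0151), and edgeR did so without oral KO tumor 1 (-2.17, adjusted p = 0.0298). KO against WT was -0.41 in oral tumors (interval -2.72 to 1.89) and 0.41 in pancreatic tumors (interval -0.58 to 1.39).

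Crabp1, which binds the acid in the cytoplasm, was near the low end. Its CPM was 0.802, 3.65, 6.53 and 3.57 in oral WT, 1.02 and 1.46 in oral KO, 0.157, 0.521, 1.49 and 2.42 in pancreatic WT, and 0.213, 1.80 and 0.361 in pancreatic KO. The values stood on 6 to 209 counts, and all groups overlapped. The log2 fold change, oral against pancreatic, was 1.68 in WT tumors (interval -0.20 to 3.55, edgeR adjusted p = 0.178) and 0.76 in KO tumors (interval -1.56 to 3.07). KO against WT was -1.37 in oral tumors (interval -3.23 to 0.48) and -0.56 in pancreatic tumors (interval -2.87 to 1.75).

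Of the 2 receptors, Rarb was called between WT tumors and Rarg between KO tumors, and neither in both. Rarb, the receptor whose promoter is shown above, had the lowest mean of the 9 genes per length in oral WT, pancreatic WT and pancreatic KO tumors, while in oral KO tumors Aldh1a1 lay lower (0.617 against 0.756 CPM per kb). It was higher in oral WT than in pancreatic WT tumors. Its CPM was 2.23, 3.28, 5.22 and 2.18 in oral WT, 5.12 and 2.84 in oral KO, 1.02, 1.65, 0.541 and 1.04 in pancreatic WT, and 2.74, 0.645 and 1.70 in pancreatic KO. The lowest oral tumor, at 2.18, lay above every pancreatic tumor except pancreatic KO tumor 1. The log2 fold change, oral against pancreatic, was 1.62 in WT tumors (SE 0.42, interval 0.66 to 2.58, edgeR adjusted p = 0.0240). The call was lost without oral WT tumor 2 or 3 or pancreatic WT tumor 1, 3 or 4, at adjusted p from 0.0515 to 0.0613 and log2 fold changes from 1.2825 to 1.63. In KO tumors it was 1.298 (interval -0.27 to 2.86, adjusted p = 0.162). KO against WT was 0.47 in oral tumors (interval -0.72 to 1.66) and 0.67 in pancreatic tumors (interval -0.54 to 1.88). Exons of Rarb overlap those of Top2b and Gm48162 on the other strand, and the counting used strand.

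Rarg, the main retinoic acid receptor of skin and other stratified epithelia, was the steadiest of the 9 within oral WT tumors. Its CPM was 150, 141, 148 and 151 in oral WT, 113 and 61.8 in oral KO, 163, 247, 190 and 211 in pancreatic WT, and 189, 217 and 239 in pancreatic KO. Both oral KO tumors lay below all oral WT tumors, and all oral tumors lay below all pancreatic tumors. Between KO tumors the log2 fold change, oral against pancreatic, was -1.22 (SE 0.29, interval -1.92 to -0.51, edgeR adjusted p = 0.0262). In WT tumors it was -0.45 (SE 0.13, interval -0.74 to -0.15, adjusted p = 0.0361), which passed the p threshold and not the fold threshold. The KO call rested on oral KO tumor 2: without it the value was -0.82 (adjusted p = 0.0566). It was also lost without any 1 of the 3 pancreatic KO tumors, at -1.23 to -1.12 (adjusted p from 0.0598 to 0.0710), in a fit of protein-coding genes alone (-0.94, adjusted p = 0.0592) and with thinned counts (-0.96, adjusted p = 0.0815). KO against WT was -0.57 in oral tumors (SE 0.26, interval -1.19 to 0.05, edgeR adjusted p = 0.166) and 0.07 in pancreatic tumors (SE 0.15, interval -0.28 to 0.42). The difference of the KO effect between tissues was -0.72 (SE 0.28, interval -1.33 to -0.10, adjusted p = 0.0994).

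Cyp26b1, which clears retinoic acid, was not called in any comparison with all tumors. Its CPM was 9.47, 24.4, 11.9 and 73.5 in oral WT, 15.2 and 16.7 in oral KO, 9.84, 34.1, 5.16 and 12.0 in pancreatic WT, and 3.72, 19.0 and 4.77 in pancreatic KO. A single high tumor in each of the WT groups and in the pancreatic KO group set the spread, and all groups overlapped. The log2 fold change, oral against pancreatic, was 0.98 in WT tumors (interval -0.73 to 2.69, edgeR adjusted p = 0.387) and 0.88 in KO tumors (interval -0.86 to 2.63). The WT value was 0.022 without oral WT tumor 4, and the KO value was 2.00 and was called without pancreatic KO tumor 2 (edgeR adjusted p = 0.0315). KO against WT was -0.71 in oral tumors (interval -2.73 to 1.31) and -0.75 in pancreatic tumors (interval -2.59 to 1.09).

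The difference of the KO effect between tissues for the other 7 genes, none of them called, was -0.25 for Aldh1a1 (SE 1.47), -0.04 for Aldh1a2 (SE 0.69), 0.88 for Aldh1a3 (SE 0.74), -0.86 for Crabp1 (SE 1.42), -0.91 for Crabp2 (SE 1.08), -0.27 for Rarb (SE 0.78) and -0.04 for Cyp26b1 (SE 1.24), on the log2 scale, oral minus pancreatic. The edgeR adjusted p of these 7 ran from 0.424 to 0.993. Their 95% intervals reached down to -3.96 (Crabp1) and up to 2.96 (Aldh1a1).

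The genes' neighbours in the pathway were read from 6 lists with 76 other genes. Between WT tumors, 13 of the 68 tested were called, 5 higher and 8 lower in oral tumors, which is 19.1% against the 16.5% of all genes. The median log2 fold change was -0.28 against 0.00 over all genes. The smallest adjusted p values belonged to genes lower in oral tumors. Meis1, a homeobox gene known to respond to retinoic acid, stood at 11.7 ± 4.57 CPM in oral WT and 138 ± 51.4 in pancreatic WT (SD, n = 4 each, log2 fold change -3.56, edgeR adjusted p = 0.00103). Aldh1a7 stood at 0.368 ± 0.128 and 4.70 ± 2.40 CPM (-3.66, adjusted p = 0.00242), with 13.8% of its 31-base words shared with other genes. Rbp2, a retinol carrier best known in the gut, stood at 12.9 ± 8.36 and 75.4 ± 11.6 CPM (-2.55, adjusted p = 0.00422). Cyp2s1, a cytochrome P450 that can oxidize retinoic acid, stood at 18.3 ± 8.34 and 338 ± 354 CPM (-4.21, adjusted p = 0.0050). All 4 calls were kept in the 8 fits that left out 1 tumor.

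By role, the calls between WT tumors were 1 higher and 3 lower of 10 genes of retinol uptake, binding and storage, 0 and 1 of 15 of retinol and retinal interconversion, 0 and 1 of 2 of breakdown, 1 and 1 of 10 receptors and other carriers, 1 and 1 of 14 response genes, and 2 and 1 of 17 other aldehyde dehydrogenases. Those of uptake and storage were Rbp2, Lrat and Ttr, lower, and Rbp4, the carrier of retinol in blood, higher.

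Between KO tumors, 16 of the 70 genes tested were called, 1 higher and 15 lower in oral tumors. That is 22.9% against 25.2% of all genes, of which 14.6% were higher and 10.7% lower. The median log2 fold change was -0.45 against 0.00 over all genes. Nr2f2, an orphan receptor known to respond to retinoids, stood at 11.2 ± 2.35 CPM in oral KO (n = 2) and 257 ± 185 in pancreatic KO (n = 3), a log2 fold change of -4.44 (edgeR adjusted p = 0.0106). Lrat, which esterifies retinol for storage, stood at 4.25 ± 1.23 and 54.5 ± 31.8 CPM (-3.62, adjusted p = 0.0114). Fabp5, a fatty acid carrier that also binds retinoic acid, stood at 587 ± 78.8 and 1743 ± 345 CPM (-1.49, adjusted p = 0.0124). Aldh9a1, which oxidizes aminobutyraldehydes, stood at 18.7 and 21.3 CPM in oral KO and at 40.9 to 47.5 in pancreatic KO (-1.03, adjusted p = 0.0128). The call of Fabp5 was kept in all 5 fits that left out 1 tumor, and those of Nr2f2 and Lrat in 4 of 5, both being lost without oral KO tumor 2. That of Aldh9a1 was kept in 3 of 5 and lost without oral KO tumor 1 or pancreatic KO tumor 1. By role the calls were 1 higher and 1 lower of 10 in uptake, binding and storage, 0 and 2 of 15 in interconversion, 0 and 1 of 3 in breakdown, 0 and 3 of 11 receptors and other carriers, 0 and 3 of 14 response genes, and 0 and 5 of 17 other aldehyde dehydrogenases. The count fell to 10 without oral KO tumor 1, 7 without oral KO tumor 2, 10 without pancreatic KO tumor 1 and 9 without pancreatic KO tumor 2. In a fit of protein-coding genes alone it was 8 (1 higher, 7 lower). In that fit 17.0% of 16886 genes were called, 1776 higher and 1093 lower in oral tumors. The log2 fold changes of these protein-coding genes lay higher than in the fit of all genes, by a median of 0.28. In oral KO against WT that median shift was 0.19.

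Between KO and WT oral tumors, 6 of the 67 other pathway genes tested were called, all lower in KO. That is 8.96% against 11.7% of all genes, of which 8.81% were higher and 2.89% lower in KO. The median log2 fold change was -0.43 against 0.00 over all genes. Both depended on the genes in the fit. With protein-coding genes alone, 0.165% of 16352 genes were called, 19 higher and 8 lower in KO. Their log2 fold changes lay higher than in the fit of all genes, by a median of 0.19. Fabp5 fell from 2388 ± 410 to 587 ± 78.8 CPM (log2 fold change -1.84, edgeR adjusted p = 0.0190). Rxra, the partner of the retinoic acid receptors, fell from 217 ± 41.7 to 88.2 ± 3.99 CPM (-1.12, adjusted p = 0.0324). Aldh2, the mitochondrial enzyme of acetaldehyde, fell from 59.4 ± 14.6 to 21.8 ± 0.467 CPM (-1.27, adjusted p = 0.0340). Aldh1l1, the folate-linked dehydrogenase, fell from 22.0 ± 7.91 to 6.34 ± 0.807 CPM (-1.62, adjusted p = 0.0395). The other 2 were Dhrs4 and Nr2f2. By role, the 6 were 0 of 9 in uptake, binding and storage, 1 of 15 in interconversion, 0 of 2 in breakdown, 3 of 11 receptors and other carriers, 0 of 13 response genes and 2 of 17 other aldehyde dehydrogenases. The count was 0 without oral WT tumor 1 or 2 or either oral KO tumor, 1 without oral WT tumor 3, 7 without oral WT tumor 4, and 0 in a fit of protein-coding genes alone.

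In pancreatic tumors none of the 70 other pathway genes tested was called by edgeR between KO and WT. At an unadjusted p under 0.05 there were 19, against 3916 of all 24653 genes. DESeq2 called 7, all lower in KO, against 4.51% of all genes (394 higher, 717 lower). The median log2 fold change was -0.15 against 0.02 over all genes. The medians by role were -0.36 in uptake, binding and storage, -0.25 in interconversion, -0.00 in breakdown, 0.03 for receptors and other carriers, 0.10 for response genes and -0.16 for other aldehyde dehydrogenases.

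The KO effect differed between tissues for 6 of the 70 genes, all with a more negative effect in oral tumors. That is 8.57% against 12.3% of all genes, 7.41% with a more positive and 4.85% with a more negative effect in oral tumors. The median difference was -0.34 against -0.03 over all genes. They were Rxra (-1.03, edgeR adjusted p = 0.0151), Dhrs4, a reductase of retinaldehyde (-1.36, adjusted p = 0.0158), Dok1, an adaptor of kinase signaling (-2.55, adjusted p = 0.0196), Fabp5 (-1.14, adjusted p = 0.0218), Aldh2 and Adh5. By role, the 6 were 0 of 10 in uptake, binding and storage, 2 of 15 in interconversion, 0 of 3 in breakdown, 2 of 11 receptors and other carriers, 1 of 14 response genes and 1 of 17 other aldehyde dehydrogenases. Without single tumors the count ran from 2 (oral KO tumor 2) to 10 (oral WT tumor 4). It was 3 without pancreatic KO tumor 3, 9 without pancreatic WT tumor 4, and 2 with protein-coding genes alone. In that last fit 4.53% of 17462 genes were called, and their differences lay higher than in the fit of all genes, by a median of 0.20. With counts thinned to the smallest library 1 gene was called, with the opposite direction.

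**Figure D4:**
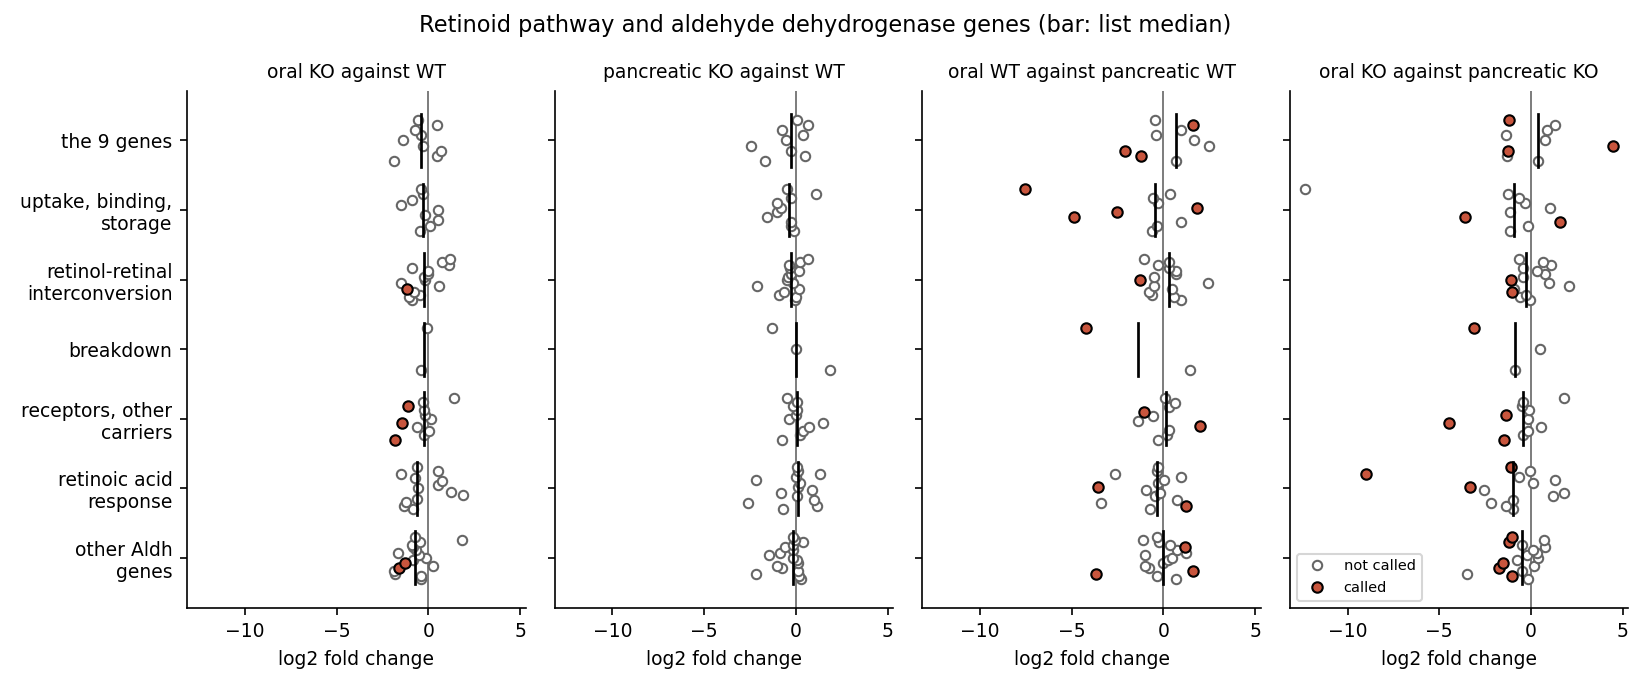
Log2 fold change (x axis, first group minus second) of the 9 genes and of the tested genes of 6 pathway lists (rows) in 4 comparisons, with a bar at each list's median and filled points for genes that passed both thresholds. Filled points are mostly to the left between KO tumors (15 of 16 of the listed genes lower in oral) and are missing from the lists in pancreatic KO against WT.

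Markers of other cell types moved with these comparisons, and their part in the values above was not tested. The 12 fibroblast markers summed to 9576 to 20250 CPM in oral WT, 9212 and 9456 in oral KO, 1259 to 2747 in pancreatic WT and 2719 to 4840 in pancreatic KO, and 10 of 12 were called higher in oral WT than in pancreatic WT tumors. Between KO tumors 4 of the 12 were called higher in oral and 1, Thy1, lower (log2 fold change -1.69). In oral KO against WT, 4 of the 12 were above 0 (median -0.23), and Dcn (-3.40) and Lum (-2.09) were called lower in KO. In pancreatic KO against WT all 12 were above 0 (median 0.81) and 0 were called. In the difference of the KO effect 0 of the 12 were above 0 (median -1.01), with Dcn (-4.28) and Lum (-3.48) called. Summed over the 10 basal keratinocyte markers, CPM was lower in oral than in pancreatic tumors, at 4903 to 9268 in oral WT, 4172 to 4874 in oral KO, 9295 to 17530 in pancreatic WT and 14490 to 16390 in pancreatic KO. Of the 10, 7 were called lower in oral KO than in pancreatic KO tumors. Between WT tumors 4 were called lower in oral and 1, Krt15, higher (log2 fold change 2.12). Krt15 was also called lower in oral KO than in oral WT tumors (-3.11). The 14 keratinocyte differentiation markers stood at 1596 to 9448, 2912 and 8485, 4470 to 8514 and 674 to 2565 CPM, with oral WT tumor 4 the highest of all. That tumor was also the highest of the oral WT group in Aldh1a3, Crabp2 and Cyp26b1. In pancreatic KO against WT, 0 of the 14 differentiation markers were above 0 (median log2 fold change -1.73). There Krt4 (-3.46) and Krt13 (-3.69) were called lower in KO. In oral KO against WT, 6 of the 14 were above 0 (median -0.02), and Krt4 was called higher in KO (2.08). The 7 mesothelial markers summed to 126 to 203 and 81.8 to 101 CPM in oral WT and KO, and to 399 to 1096 and 414 to 603 in pancreatic WT and KO, with 4 of 7 called lower in oral WT. The 7 adipocyte markers summed to 102 to 570 and 257 to 267 in oral tumors, where Adipoq, Cidec and Lep were at 0 counts in both oral KO tumors, and to 1515 to 3028 and 535 to 2306 in pancreatic tumors. Single adipocyte markers did not all follow the sum. Of 5 tested between KO tumors, 3 were above 0 (median log2 fold change 1.31), with Retn called higher and Fabp4 lower in oral. Between WT tumors the median of 5 tested was -0.50, with Fabp4 called lower in oral. In oral KO against WT it was 2.45 over 4 tested, 3 of them above 0 and 0 called. The 12 pancreatic acinar and ductal markers summed to 71.1 to 244 and 79.8 to 80.3 in oral tumors and to 812 to 1171 and 865 to 1343 in pancreatic tumors. Endothelial markers (10) stood at 126 to 316 CPM and leukocyte markers (12) at 239 to 727 over all tumors. The 10 salivary and mucous gland markers stood at 8.56 to 27.9 in oral and 17.5 to 107 in pancreatic tumors, and the 6 hepatocyte markers at 0.310 to 1.02 in oral and 0.668 to 30.98 in pancreatic tumors. Few gland markers had enough counts to be tested. Of the 4 tested between WT tumors, Muc5b was called higher in oral (log2 fold change 6.61), and Aqp5 (-2.39) and Prom1 (-1.64) were called lower. Krt19 is on both the mesothelial and the pancreatic list, and Ttr is both a hepatocyte marker and a pathway gene. Ctrb1 and Amy2b had 0 counts in all oral WT tumors, and Pnlip, Prss2 and Amy2b in both oral KO tumors. Alb, Apoa1, Ttr and Fga had 0 counts in both oral KO tumors, and Smgc and Prol1 in all oral tumors. The 12 skeletal muscle markers were all higher in oral KO than in oral WT by log2 fold change, with 1 of 12 called. Of the same 12, 11 were called higher in oral KO than in pancreatic KO tumors, with a median log2 fold change of 8.15 over the list, and 3 of 11 tested were called higher in oral WT than in pancreatic WT tumors.

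On the log2 CPM scale over the 13 tumors, Aldh3a1 and Crabp1 went together (Pearson r = 0.78, and 0.69 after the group means were taken out), as did Aldh1a3 and Crabp2 (0.68 and 0.65). Crabp2 and Cyp26b1 had r = 0.16 over all tumors and 0.63 within groups. Aldh1a3 and Rarb (-0.73) and Aldh1a2 and Aldh3a1 (-0.73) ran against each other, and within groups these fell to -0.36 and -0.23. The 13 points share 4 groups and their library depths, and no p is given.

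Among 17453 protein-coding genes, the pair whose log2 CPM was most like each gene over the 13 tumors was found by Pearson r, as a description. For Aldh1a3 they were Ablim3 (0.97) and Sel1l3 (0.96), for Aldh1a2 Eef1e1 and Terb1 (both 0.94), and for Aldh1a1 Amdhd1 (0.83) and Cwc27 (0.81). For Aldh3a1 they were Kcnh1 (0.94) and Kcnb2 (0.92), for Crabp1 Jdp2 and Clec4a2 (both 0.85), and for Crabp2 Fam89a and Iffo2 (both 0.93). For Rarg they were Kdf1 (0.98) and Exoc7 (0.97), for Rarb Amy1 (0.91) and Zfp707 (0.89), and for Cyp26b1 Gas7 (0.92) and Ugcg (0.89). The best match of Aldh1a1 was the weakest of the 9 and that of Rarg the strongest.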

How the data were processed

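Total RNA of dissected tumors was depleted of ribosomal RNA, and 1 stranded library was made per tumor. The authors trimmed reads with Trim Galore 0.6.10, quantified them with kallisto 0.50.0 on GENCODE M23 transcripts (GRCm38, reverse-stranded) and used tximport to add up transcripts by gene. The deposited values are estimated counts with no scaling to library size. They were rounded here, since 27.3% had a fractional part. GENCODE M21, in which 55141 of the 55332 identifiers were found, gave symbols, exon lengths and positions.

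Genes with at least 10 counts in 2 tumors of a fit were tested in R 4.3.3 with edgeR 4.0.16 (TMM, robust quasi-likelihood, Benjamini-Hochberg over all genes tested), and a gene was called at an adjusted p below 0.05 with a log2 fold change beyond 1 in either direction. Intervals of 95% follow from the fit's degrees of freedom. CPM used TMM factors over all 13 tumors. Groups came from the sample labels. The 4 pairwise comparisons were fitted on their own groups, and the interaction on all tumors. Alternatives were DESeq2 1.42.0 with and without apeglm 1.24.0, other size factors, other filters, 1 fit of all tumors, protein-coding genes alone, thinned counts, tumor number as a block, and leaving out each tumor. The edgeR script was tested on simulated data.

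The 9 genes, the pathway and marker lists and the tests were chosen with earlier results of these data known. All 9 genes are given in every comparison. 1 gene of the pathway lists is not reported here and stands in no count of the lists. Of other pathway genes, at most 4 per comparison were named by smallest adjusted p among those called, and the others named beside a count were chosen after their values were seen. The 2 protein-coding genes with the highest Pearson r to each gene (log2 CPM, prior count 2) were named as well. Total counts set the precision, and p-values and intervals reflect the spread between libraries.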

Additional observations from a re-analysis of the deposited data

How the results depend on the processing

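The labels do not say that tumors with the same number are paired. Same-numbered tumors of 2 groups correlated in their deviations from group means at -0.08 to 0.32, and 1 of 11 pairs was above 0.1. With 2 to 4 tumors in a group, these correlations cannot decide whether the numbers pair the samples. As a replicate block the tumor number moved no count of calls among the 9 genes by over 1.5 times. The other pathway genes called went from 6 to 0 in oral KO against WT, where the share of all genes went from 11.7% to 0.291%. They went from 0 to 6 in pancreatic KO against WT (all genes 0.629% to 2.39%) and from 6 to 3 in the difference of the KO effect (12.3% to 5.65%). Under the block the log2 fold change turned for Aldh1a2 (-0.24), Crabp2 (0.19) and Cyp26b1 (0.26) in oral KO against WT, for Crabp1 in pancreatic KO against WT (1.1e-05), for Aldh1a1 between KO tumors (-0.58) and for Cyp26b1 in the difference of the KO effect (0.28). With the block, Rarb was no longer called between WT tumors (adjusted p = 0.0732), Aldh3a1 and Crabp1 were (0.0332 and 0.0365), and Aldh3a1 was no longer called between KO tumors (0.139).

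Between KO tumors the count of called genes fell from 3 to 1 with protein-coding genes alone and to 1 with thinned counts. The share of all genes called went from 25.2% to 17.0% and 9.68% in these fits. In the difference of the KO effect, values near 0 turned with thinned counts (Aldh1a1 0.26, Aldh1a2 0.081, Cyp26b1 0.12), with 10 counts in every tumor (Aldh1a2 0.14, Cyp26b1 0.13) and with protein-coding genes alone (Aldh1a2 and Cyp26b1 both 0.16). Aldh1a2 between WT tumors and Aldh1a3 between KO tumors missed the threshold in 1 fit of all 13 tumors (edgeR adjusted p = 0.0544 and 0.142), and Aldh1a3 between WT tumors did without a filter (0.0821).

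Over all genes, oral KO against WT went from 1968 higher and 646 lower to 19 and 8 with protein-coding genes alone, 43 and 22 under the block and 2605 and 1399 in DESeq2. Pancreatic KO against WT went from 83 and 72 to 3 and 7, 189 and 401, and 394 and 717. DESeq2 called 11 of the other pathway genes in oral KO against WT, 7 in pancreatic KO against WT, and 10 in the difference of the KO effect, and thinned counts gave 3, 0 and 1. Over all genes DESeq2 called 17.9%, 4.51% and 18.3%, and thinned counts gave 4.98%, 0.569% and 3.05%. Between KO tumors the other pathway genes called went from 16 to 10 with thinned counts and to 10 with at least 10 counts in every tumor. The share of all genes went from 25.2% to 9.68% and 29.7%.

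Leaving out single tumors gave 0 to 1 called genes in oral KO against WT, 1 to 3 between WT tumors, and 0 to 1 in the difference of the KO effect. The count between WT tumors was 1 without oral WT tumor 2 or pancreatic WT tumor 1 or 3, where 13.1%, 12.9% and 12.4% of all genes were called. Signs turned within these ranges: in oral KO against WT, Aldh1a2 -1.46 to 1.27, Aldh3a1 -1.29 to 0.30, Crabp2 -1.28 to 0.64, Rarb -0.031 to 0.87 and Cyp26b1 -0.9997 to 0.26. In pancreatic KO against WT they were Crabp1 -1.998 to 0.083, Rarg -0.032 to 0.18 and Cyp26b1 -1.84 to 0.0067, and between KO tumors Aldh1a1 -2.12 to 1.31. In the difference of the KO effect they were Aldh1a1 -2.82 to 0.68, Aldh1a2 -2.06 to 0.69, Crabp1 -1.56 to 0.59, Crabp2 -1.77 to 0.13, Rarb -0.79 to 0.28 and Cyp26b1 -0.79 to 1.08. None of the values that turned was called in the reported fit, and apart from the counts above, the cause of these changes was not tested.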
